A study of Mus musculus with 11 samples.

Results

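The genes described here are 40 genes of the cell division cycle, 15 of DNA replication, 20 of mitosis and 5 cyclins of the G1 and S phases, out of 19057 genes that the array annotation names. They were chosen by name and function, with no threshold on their values, and each was read from its brightest probe. A named probe was found for 38 of the 40 (79 probes in all, with Cdk1 also sought under its older symbol Cdc2a), and 33 were bright enough to test: 14 replication genes, 14 mitotic genes and all 5 cyclins. Mki67 and Ccnb1 had no named probe, and Pola1, Ccnb2, Bub1, Kif20a and Cenpe had probes too dim to test. All 33 tested genes were above background on all 11 arrays.

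RNA came from newborn ovaries of Sohlh1 knockout mice (Sohlh1 KO, n = 4), Sohlh2 knockout mice (Sohlh2 KO, n = 3, numbered 2 to 4 in their titles) and wild-type mice (n = 4), all on a C57BL/6/129S6/SvEv background, with 1 Illumina MouseWG-6 v2 array per sample. Both genes encode transcription factors of the basic helix-loop-helix class that germ cells express. The labels name neither the alleles nor whether an RNA sample came from 1 animal or a pool, and they do not say that replicates were separate animals, so the spread between arrays may be partly technical. The arrays lay on 2 chips. Sohlh1 KO 1 and 2 shared chip 1 with all 4 wild-type arrays. The other Sohlh1 KO arrays and the 3 Sohlh2 KO arrays lay on chip 2, so Sohlh2 KO and wild type never shared a chip. With chip fitted as a block, the Sohlh1 KO difference therefore comes from chip 1 alone. The blocked Sohlh2 KO difference is reached only through the Sohlh1 KO arrays on both chips. The titles of wild type 2 and 3 carry a letter b that the labels do not explain, so results are also given without this pair where they change.

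A dividing cell licenses its replication origins in G1 by loading the Mcm2 to Mcm7 helicase with the help of Cdc6 and Cdt1, copies its DNA in S phase, and then turns on the kinases, spindle proteins and checkpoint proteins of mitosis. G1 and S genes are classically read through E2F sites in their promoters, and G2 and M genes through CCAAT boxes and the cell cycle homology region. In the newborn ovary the oocytes have left the mitotic cycle and stand in meiotic prophase, while somatic cells around them still divide. In RNA from a whole organ, fewer dividing cells and less RNA per dividing cell cannot be told apart. Nor can either be told from a change in cells that do not divide, such as the oocytes.

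Levels below are normalized log2 intensities and differences are log2 knockout minus wild type. The figure that follows ± is a group's SD. A gene is called when the adjusted p of limma, Benjamini-Hochberg over all 13355 tested genes, is under 0.05. As a check of the labels, Sohlh1 in Sohlh1 KO read 8.69 ± 0.29 (SD, n = 4), and Sohlh2 KO gave 8.70 ± 0.11 (n = 3), against 11.27 ± 0.15 (n = 4) in wild type. Its difference between the knockouts was -0.0083 (adjusted p = 0.997). Sohlh2 was faint: Sohlh1 KO gave 5.71 ± 0.44 (SD, n = 4) and Sohlh2 KO gave 4.70 ± 0.057 (SD, n = 3, above background on 0 arrays), against 5.01 ± 0.14 in wild type (SD, n = 4). Neither gene was called between the knockouts (Sohlh2 adjusted p = 0.0810), and Sohlh2 was not called in Sohlh2 KO against wild type (adjusted p = 0.284). Sohlh2 was called higher in Sohlh1 KO than in wild type (0.70, adjusted p = 0.0115), a call lost under 3 of 24 alternatives. Read without a test, Sohlh2 was 5.38 to 6.35 in Sohlh1 KO (above background on 4 arrays) and 4.66 to 4.76 in Sohlh2 KO. The Sohlh1 probe thus did not tell the knockout labels apart. The Sohlh2 probe separated them by range only, near background and without a call. The position of either probe relative to the deletion is not in the labels.

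The ovaries differed widely in their cell markers, and these values stand beside every result below. The summed linear level of 10 oocyte markers in Sohlh1 KO was 2928 to 4758, and that in Sohlh2 KO 4172 to 5103, against 45937 to 58556 in wild type, with 9 of 10 called lower in each knockout. Sums for 10 pregranulosa and granulosa markers were 2223 to 2501 for Sohlh1 KO, 2228 to 2296 for Sohlh2 KO, against 10485 to 14099 in wild type, with 6 of 10 called lower and 2 higher in each knockout. The granulosa hormone gene Amh was above background on 0 arrays of either knockout. All 8 tested meiotic prophase markers were called higher in both knockouts, with sums of 4011 to 5409 for Sohlh1 KO, 4061 to 4658 for Sohlh2 KO and 814 to 1211 for wild type. Red cell precursor markers summed to 28364 to 43711 for Sohlh1 KO, 25076 to 34517 for Sohlh2 KO, against 7022 to 11541 in wild type, with 5 of 5 called higher in Sohlh1 KO and 3 of 5 in Sohlh2 KO. Granulocyte precursor markers summed to 7118 to 45696 for Sohlh1 KO, 2048 to 12510 for Sohlh2 KO, against 2027 to 2730 in wild type, with 7 of 9 called higher in Sohlh1 KO and 3 of 9 in Sohlh2 KO. Of the other lists, germ cell markers had 4 called higher and 1 lower of 5 in Sohlh1 KO and 3 and 1 in Sohlh2 KO, theca and steroidogenic markers 4 of 4 lower in both, and multiciliated cell markers 5 of 6 lower in both. Smooth muscle markers had 3 of 4 lower in Sohlh1 KO and 2 in Sohlh2 KO, while endothelial and macrophage markers each had 2 of 4 higher in Sohlh1 KO and 1 in Sohlh2 KO. Blood precursors divide, and their part in any cell cycle value was not tested, nor was that of the oocytes.

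The counts of called genes lay near or below the shares of all tested genes in both knockouts. Of the 7 genes that fell in Sohlh1 KO, 5 were mitotic, and the 1 that fell in Sohlh2 KO was mitotic. In Sohlh1 KO against wild type, 2 of the 33 genes rose (Mcm3 and Ccne1) and 7 fell (Aurka, Plk1, Bub1b, Cdk1, Tpx2, Ccnd1 and Pcna). Among all tested genes 16.3% rose and 16.4% fell (32.7% in either direction), so the count that fell is near the background and the count that rose is below it. In Sohlh2 KO against wild type, Mcm3 and Ccne1 rose and Aurka fell, against 12.5% of all genes higher, 13.0% lower and 25.5% in either direction, so both counts are below the background. Between Sohlh1 KO and Sohlh2 KO 0 of the 33 genes were called by limma, where 0.0374% of all genes were (0.0300% higher and 0.00749% lower). By unadjusted p under 0.05 that count was 5 of 33, against 8.51% of all genes. Within chip 1 the Sohlh1 KO count that rose was 0, without Sohlh1 KO 2 it was 4, and without wild type 2 and 3 the count that fell was 3. For Sohlh2 KO, 0 rose with chip as a block, 1 rose without Sohlh2 KO 3, and without wild type 2 and 3 the counts were 1 higher and 0 lower.

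The overlap of the groups was read without a test. In Sohlh1 KO, Mcm3 and Ccne1 lay wholly above wild type and Cdk1, Aurka, Bub1b, Tpx2 and Ccnd1 wholly below it, against 15.0% and 16.1% of all genes. In Sohlh2 KO, 8 genes lay wholly above wild type (Mcm2, Mcm3, Mcm4, Mcm5, Rrm2, Gins1, Top2a and Ccne1) and 4 wholly below it (Mcm7, Pcna, Aurka and Ttk), against 24.0% and 19.4% of all genes. Sohlh1 KO lay wholly below Sohlh2 KO for Cdk1, Bub1b and Ccnd1 and wholly above it for 0 genes, against 4.60% and 3.01% of all genes.

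By role, the median of the mitotic genes lay below that of the replication genes in both knockouts. The 14 mitotic genes had a median difference of -0.31 in Sohlh1 KO and -0.15 in Sohlh2 KO, and 11 and 10 of the 14 were below 0. The 14 replication genes had medians of 0.083 in Sohlh1 KO and 0.23 in Sohlh2 KO, and all tested genes 0.035 and 0.044. Replication thus stood above mitosis by 0.396 in Sohlh1 KO and 0.379 in Sohlh2 KO (difference of medians, with no test). The Sohlh1 KO replication median changed sign with chip as a block (-0.050) and without Sohlh1 KO 4 (-0.031), and was 0.176 without Sohlh1 KO 2, 0.042 without Sohlh1 KO 1 and 0.035 without wild type 2. It was 0.054 without wild type 2 and 3 and 0.012 with probes averaged. With chip as a block the Sohlh2 KO medians were 0.035 for replication and -0.41 for mitosis. The gap in Sohlh1 KO was 0.233 with all probes of a gene averaged. Both knockouts were set against the same wild-type arrays, so these 2 values are not independent. Of the mitotic genes 0 rose and 5 fell in Sohlh1 KO (35.7%), and 0 rose and 1 fell in Sohlh2 KO. Of the replication genes 1 rose and 1 fell in Sohlh1 KO, and 1 rose and 0 fell in Sohlh2 KO. In the wider lists given below, the medians of other replication and other mitotic machinery lay closer together. They were -0.025 and -0.22 in Sohlh1 KO, and 0.051 and -0.030 in Sohlh2 KO.

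**Figure D1:**
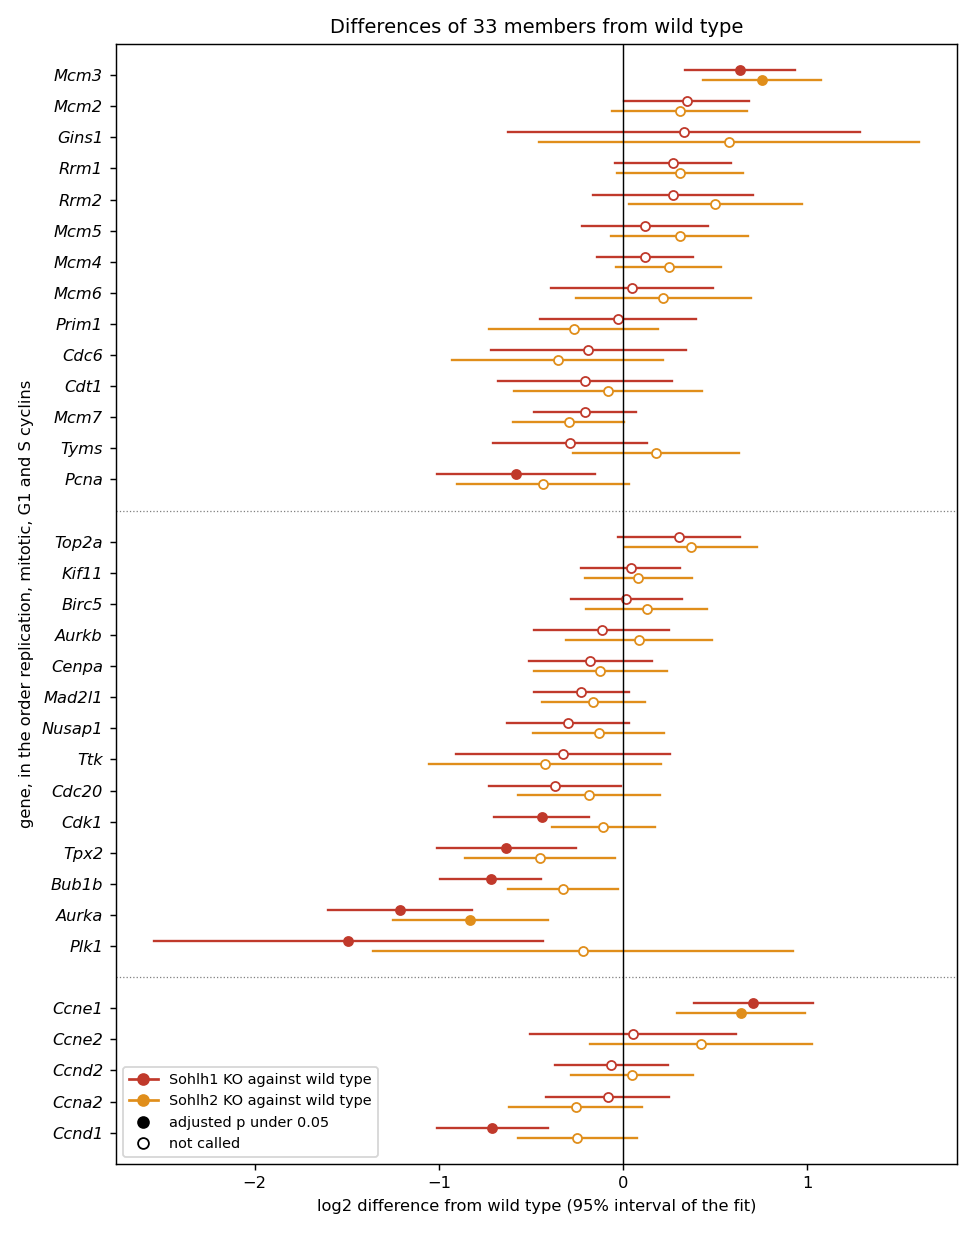
Log2 difference from wild type of each of the 33 tested genes in Sohlh1 KO (red) and Sohlh2 KO (orange), with the 95% interval of the fit. Filled points passed an adjusted p under 0.05. Mcm3 and Ccne1 lie to the right of 0 and Aurka to the left of 0 in both knockouts, and most mitotic genes lie left of 0.

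Aurka (NCBI gene 20878, chromosome 2), the mitotic kinase that matures centrosomes and builds the spindle, was lower in every knockout array. It read 8.91, 8.83, 9.56 and 9.59 in Sohlh1 KO 1 to 4 and 9.42, 9.79 and 9.60 in Sohlh2 KO 2 to 4, against 10.47, 10.42, 10.55 and 10.30 in wild type 1 to 4. Neither knockout overlapped wild type, and within Sohlh1 KO the chip 1 arrays were the lower pair. In Sohlh1 KO the level fell 2.32-fold, a log2 difference of -1.21 with an SE of 0.181 (adjusted p = 1.93e-04). In Sohlh2 KO it fell 1.78-fold, by -0.83 with an SE of 0.195 (adjusted p = 0.00714). Both differences grew with chip as a block, to -1.57 (adjusted p = 6.71e-06) and -1.54 (adjusted p = 3.64e-04). The Sohlh2 KO call ended without wild type 2 and 3 (-0.78, adjusted p = 0.0700).

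The Aurka promoter is shown because it carries both elements of a mitotic promoter and Aurka is the mitotic gene called in both knockouts. The sequence runs from 250 bases before the RefSeq transcription start to 50 after it, at chr2:172370521-172370820 on the minus strand of GRCm38.p6, and capitals mark CCAAT boxes and the cell cycle homology region (TTTGAA).
Aurka: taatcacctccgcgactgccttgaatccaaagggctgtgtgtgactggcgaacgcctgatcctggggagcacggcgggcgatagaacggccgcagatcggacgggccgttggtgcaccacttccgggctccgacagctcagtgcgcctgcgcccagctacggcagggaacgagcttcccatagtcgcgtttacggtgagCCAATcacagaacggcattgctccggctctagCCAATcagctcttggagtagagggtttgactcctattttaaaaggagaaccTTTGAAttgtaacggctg
The CCAAT boxes begin 51 and 19 bases before the start, and TTTGAA begins at base 33, counting the start as base 1.

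Among promoters of the same window, the homology region and E2F elements followed the roles, while CCAAT was common in both. RefSeq promoters were at hand for 31 of the 40 genes (17 mitotic, 13 replication, and Ccne1), called or not, tested or not. A gene was counted when any of its promoters matched, so 2 motifs of a gene may lie in different promoters. The table holds 32851 promoters of 27025 genes. The cell cycle homology region, searched as TTTGAA or TTCGAA on both strands, was found for 12 of 17 mitotic genes (70.6%). It was found for 2 of 13 replication genes (Mcm2 and Mcm7, 15.4%), against 21.7% of all 27025 genes. An E2F element, searched as TTTGGCGC, TTTGCCGC, TTTCGCGC or TTTCCCGC, was found for 1 mitotic gene (Cdk1, 5.88%) and 7 replication genes (53.8%), against 2.61% of all. CCAAT was found for 82.4% of mitotic and 76.9% of replication genes, against 41.1% of all. The E-box CANNTG, the class of site that basic helix-loop-helix factors read, was found in 70.6% and 53.8%, against 75.0% of all. All motifs were searched on both strands, and matches of different motifs may share letters. Of the 5 mitotic genes that fell in Sohlh1 KO, Aurka, Plk1, Bub1b and Cdk1 held both CCAAT and the homology region, and Tpx2 had no promoter in the table. Top2a, Kif11, Cdc20, Cenpa and Ttk, which were not called in either knockout, held both as well. A match describes letters in a window and shows neither binding nor use.

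**Figure D2:**
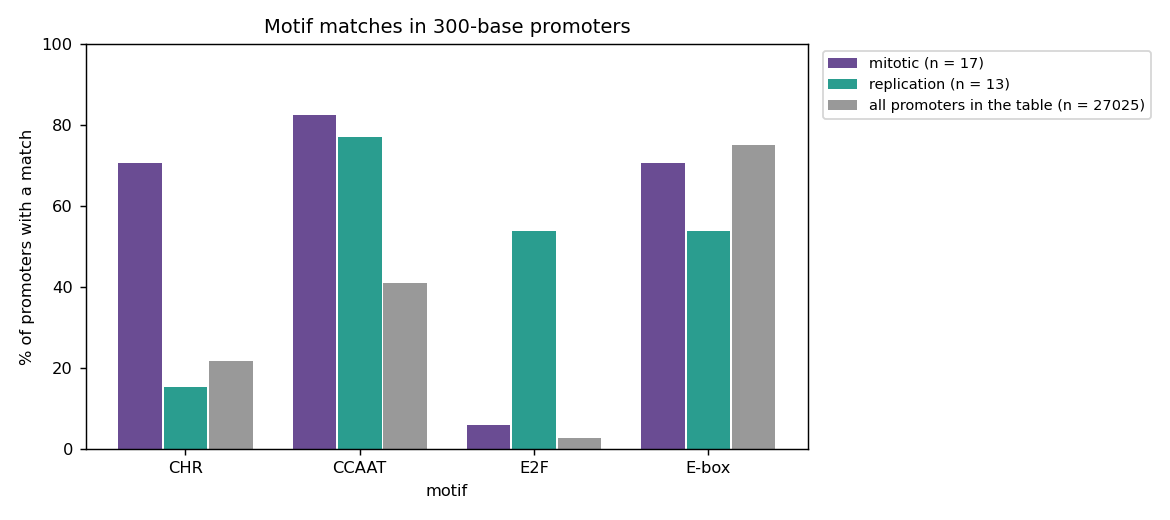
Share of genes with at least 1 match to each motif in any of their 300-base promoters (percent). Bars are for 17 mitotic genes, 13 replication genes and all 27025 genes in the promoter table (labelled as promoters). The homology region (CHR) is commonest in the mitotic set at 70.6% and E2F in the replication set at 53.8%.

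Plk1 (NCBI gene 18817, chromosome 7), the polo-like kinase of mitotic entry, varied more than any other tested member in Sohlh1 KO. It read 6.46, 8.49, 7.76 and 9.49 in Sohlh1 KO 1 to 4 and 10.05, 8.97 and 8.95 in Sohlh2 KO 2 to 4, against 9.33, 9.60, 9.86 and 9.38 in wild type 1 to 4. Sohlh1 KO 4 lay within the wild-type range, and the other 3 Sohlh1 KO arrays lay below it. The fall in Sohlh1 KO was 2.81-fold (-1.49, SE 0.487, adjusted p = 0.0322), and the difference in Sohlh2 KO did not pass (-0.22, adjusted p = 0.805). Without Sohlh1 KO 1 the Sohlh1 KO difference was -0.96 and the call was lost (adjusted p = 0.0643), as it was without Sohlh1 KO 3 or any single wild-type array. Between the knockouts the difference of -1.27 (95% interval -2.41 to -0.14) did not pass after adjustment (adjusted p = 0.515).

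Bub1b, which encodes the spindle checkpoint kinase BubR1, was steadier. It read 9.36, 9.21, 9.22 and 9.52 in Sohlh1 KO 1 to 4 and 9.82, 9.66 and 9.68 in Sohlh2 KO 2 to 4, against 10.00, 9.80, 10.17 and 10.23 in wild type 1 to 4. All 4 Sohlh1 KO arrays were below all wild-type arrays, while Sohlh2 KO 2 stood above wild type 2. Bub1b fell 1.65-fold in Sohlh1 KO (-0.72, SE 0.127, adjusted p = 7.67e-04), and in Sohlh2 KO its difference was -0.33 (adjusted p = 0.103). A fainter Bub1b probe differed by -0.29 in Sohlh1 KO (adjusted p = 0.186 over probes), so the call rests on the brighter of its 2 probes. The difference between the knockouts was -0.39 (95% interval -0.69 to -0.095, adjusted p = 0.388).

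Cdk1, the cyclin-dependent kinase that drives mitosis, read 10.57, 10.29, 10.69 and 10.68 in Sohlh1 KO 1 to 4 and 10.85, 10.86 and 10.96 in Sohlh2 KO 2 to 4, against 10.88, 11.08, 11.08 and 10.96 in wild type 1 to 4. Every Sohlh1 KO array was below every wild-type array, and Sohlh2 KO overlapped wild type. The fall in Sohlh1 KO was 1.36-fold (-0.44, SE 0.120, adjusted p = 0.0126), with a Sohlh2 KO difference of -0.11 (adjusted p = 0.591). Tpx2, which targets Aurora A to the spindle, read 8.34, 7.89, 8.30 and 7.95 in Sohlh1 KO 1 to 4 and 8.13, 8.25 and 8.53 in Sohlh2 KO 2 to 4, against 8.88, 8.56, 9.14 and 8.44 in wild type 1 to 4. Sohlh1 KO did not overlap wild type here either, and Sohlh2 KO 4 stood above wild type 4. Tpx2 fell 1.55-fold in Sohlh1 KO (-0.63, SE 0.175, adjusted p = 0.0137) and differed by -0.45 in Sohlh2 KO (adjusted p = 0.0995). Blocked on chip, Tpx2 in Sohlh1 KO differed by -0.64 and did not pass (adjusted p = 0.0507). Without wild type 2 and 3 neither the Cdk1 (-0.36, adjusted p = 0.145) nor the Tpx2 difference passed.

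The other 9 tested mitotic genes did not pass in either knockout, with differences between -0.37 and 0.30 in Sohlh1 KO. Cdc20, an activator of the anaphase-promoting complex, was the lowest of these at -0.37 (adjusted p = 0.109), and passed with chip as a block (-0.62, adjusted p = 0.0151). Top2a, the topoisomerase that untangles sister chromatids, leaned the other way. It read 10.00, 9.41, 9.88 and 10.11 in Sohlh1 KO 1 to 4 and 9.95, 9.74 and 10.05 in Sohlh2 KO 2 to 4, against 9.60, 9.40, 9.68 and 9.51 in wild type 1 to 4. Sohlh2 KO lay wholly above wild type and Sohlh1 KO 2 did not, and neither difference passed (0.30, adjusted p = 0.151, and 0.37, adjusted p = 0.127). A fainter Top2a probe gave -0.55 in Sohlh1 KO (adjusted p = 0.0690 over probes), so the direction depends on the probe. Kif11, the kinesin of spindle bipolarity, differed by 0.041 in Sohlh1 KO (95% interval -0.23 to 0.31), and Birc5, the survivin subunit of the chromosomal passenger complex, by 0.018 (-0.28 to 0.32). Aurkb, the kinase of that complex, differed by -0.12 in Sohlh1 KO (-0.48 to 0.25) and 0.086 in Sohlh2 KO (-0.31 to 0.48).

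**Figure D3:**
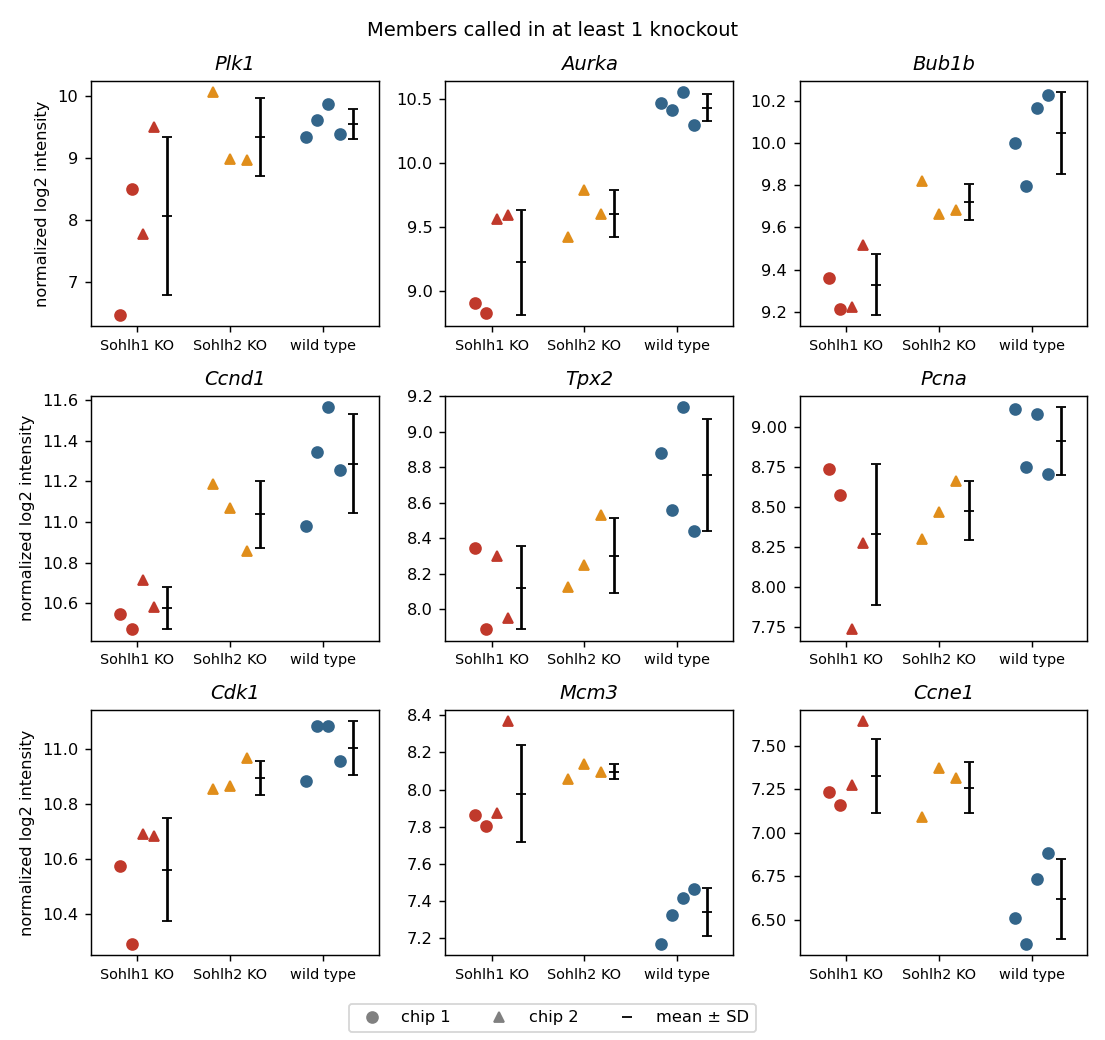
Normalized log2 intensity of the 9 called genes by array, in Sohlh1 KO, Sohlh2 KO and wild type, with circles for chip 1, triangles for chip 2 and the mean ± SD at the right of each group. Each panel has its own axis, which does not start at 0. Plk1 in Sohlh1 KO is the most scattered group, and Aurka, Mcm3 and Ccne1 show no overlap of either knockout with wild type.

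Of the replication genes, Mcm3 (NCBI gene 17215, chromosome 1), a subunit of the Mcm2 to Mcm7 helicase, rose in both knockouts. It read 7.86, 7.80, 7.88 and 8.37 in Sohlh1 KO 1 to 4 and 8.06, 8.14 and 8.09 in Sohlh2 KO 2 to 4, against 7.17, 7.32, 7.42 and 7.46 in wild type 1 to 4. All 7 knockout arrays were above all 4 wild-type arrays. Mcm3 rose 1.55-fold in Sohlh1 KO (0.63, SE 0.138, adjusted p = 0.00327) and, in Sohlh2 KO, 1.69-fold (0.75, SE 0.149, adjusted p = 0.00222). Blocking on chip, the differences were 0.49 (adjusted p = 0.0362) and 0.47 (adjusted p = 0.220), and within chip 1 alone the Sohlh1 KO value of 0.49 did not pass (adjusted p = 0.0528).

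The Mcm3 promoter is shown as the replication counterpart to that of Aurka. It lies at chr1:20820263-20820562 on the minus strand (RefSeq, GRCm38.p6), and capitals mark CCAAT boxes on either strand and E2F elements.
Mcm3: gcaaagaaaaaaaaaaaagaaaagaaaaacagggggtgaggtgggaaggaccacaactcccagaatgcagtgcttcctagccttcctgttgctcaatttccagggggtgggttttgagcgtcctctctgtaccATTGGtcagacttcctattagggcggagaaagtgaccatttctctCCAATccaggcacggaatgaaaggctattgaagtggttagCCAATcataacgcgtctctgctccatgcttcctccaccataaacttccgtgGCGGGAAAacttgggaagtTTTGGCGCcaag
CCAAT or its complement begins 117, 72 and 32 bases before the start, E2F elements begin at bases 20 and 39 from it, and the homology region has no match in the window.

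The rise of Mcm3 was not shared by the whole helicase. Mcm2 read 9.78, 9.18, 9.28 and 9.77 in Sohlh1 KO 1 to 4 and 9.47, 9.44 and 9.49 in Sohlh2 KO 2 to 4, against 9.14, 8.93, 9.39 and 9.18 in wild type 1 to 4. The 3 Sohlh2 KO arrays lay just above wild type 3. Sohlh1 KO 2 and 3 lay within the wild-type range, and Sohlh1 KO 1 and 4 above it. The differences of 0.34 in Sohlh1 KO (adjusted p = 0.115) and 0.31 in Sohlh2 KO (adjusted p = 0.215) did not pass. Mcm4, Mcm5 and Mcm6 differed by 0.12, 0.12 and 0.048 in Sohlh1 KO and by 0.25, 0.31 and 0.22 in Sohlh2 KO, and none of these passed. Mcm7 was on the other side of 0, at -0.21 in Sohlh1 KO and -0.30 in Sohlh2 KO, without passing (adjusted p = 0.241 and 0.143). The Mcm6 probes disagreed, since a dimmer probe differed by -1.08 in Sohlh2 KO (adjusted p = 0.0481 over probes).

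Pcna, the sliding clamp of the replicative polymerases, was the replication gene that fell. It read 8.74, 8.57, 7.74 and 8.28 in Sohlh1 KO 1 to 4 and 8.30, 8.47 and 8.67 in Sohlh2 KO 2 to 4, against 9.11, 8.75, 9.08 and 8.71 in wild type 1 to 4. Sohlh1 KO 1 stood above wild type 4, and Sohlh1 KO 3 was lowest of all 11 arrays. Pcna fell in Sohlh1 KO (-0.58, SE 0.199, adjusted p = 0.0397), and the Sohlh2 KO difference of -0.43 did not pass (adjusted p = 0.165). The Sohlh1 KO call did not hold throughout: with chip as a block the difference was -0.26 (adjusted p = 0.360), and without Sohlh1 KO 3 it was -0.38 (adjusted p = 0.100). Blocked on chip, the Sohlh2 KO difference turned to 0.22 (adjusted p = 0.679).

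The licensing factors and nucleotide enzymes did not pass in either knockout. Cdc6 and Cdt1, which load the helicase, differed by -0.19 and -0.21 in Sohlh1 KO and by -0.36 and -0.082 in Sohlh2 KO. Rrm1 and Rrm2, the subunits of ribonucleotide reductase, differed by 0.27 and 0.27 in Sohlh1 KO and by 0.31 and 0.50 in Sohlh2 KO (adjusted p of 0.176 and 0.114 in Sohlh2 KO). The Rrm2 interval in Sohlh2 KO, 0.029 to 0.97, lay above 0 before adjustment. Tyms, the thymidylate synthase, differed by -0.29 in Sohlh1 KO and 0.18 in Sohlh2 KO, and Prim1, a primase subunit, by -0.029 and -0.27. One of the fainter Tyms probes differed by 0.52 in Sohlh2 KO (adjusted p = 0.0342 over probes), and the other fainter probes did not pass. Gins1, a subunit of the GINS complex of the active helicase, read between 6.14 and 9.0 in Sohlh1 KO, an SD of 1.23 that left its difference of 0.33 unresolved (95% interval -0.63 to 1.28).

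**Figure D4:**
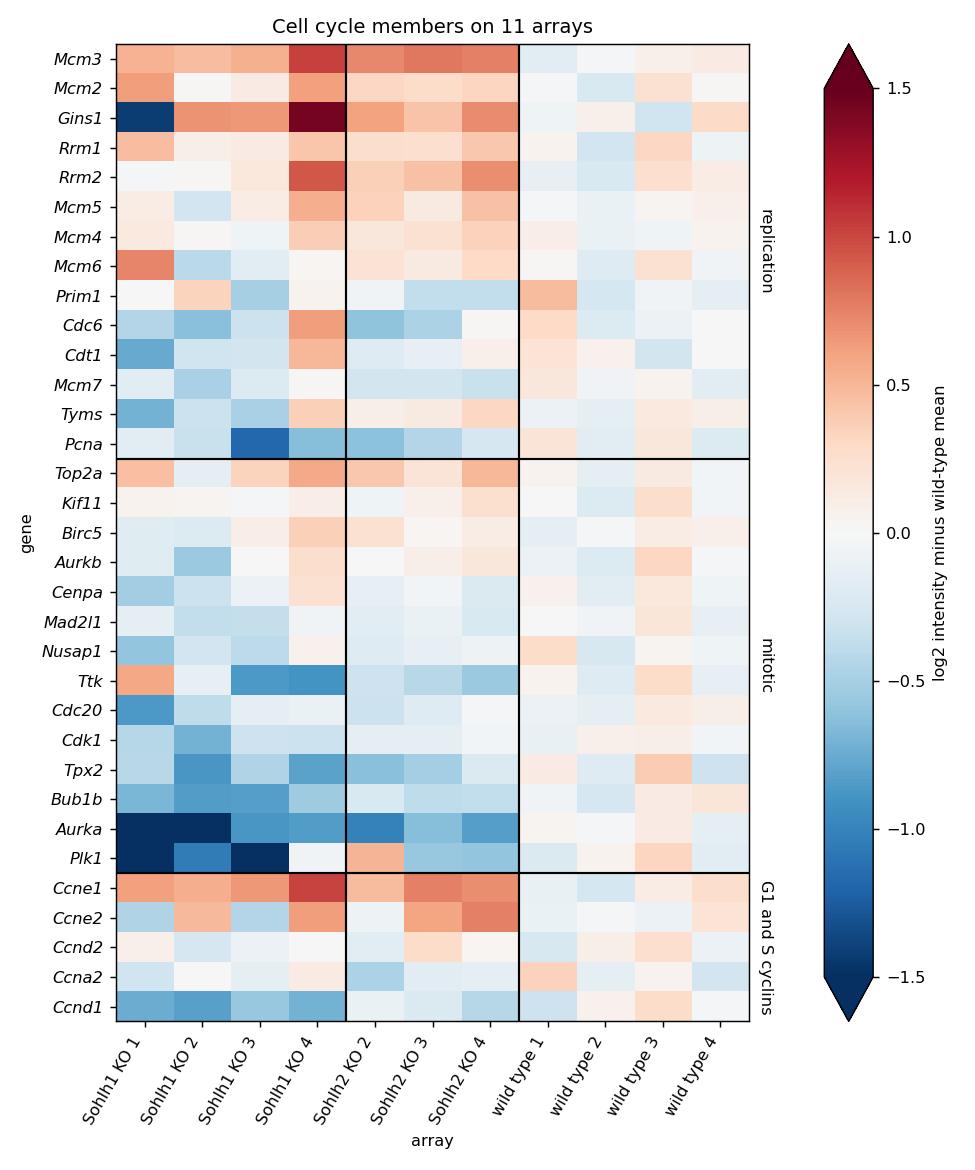
Log2 intensity minus the wild-type mean for the 33 tested genes (rows, by role) on the 11 arrays (columns, Sohlh1 KO, Sohlh2 KO, wild type). Red is above and blue below the wild-type mean, with colours held at 1.5 in either direction. Aurka and Bub1b are among the rows blue on every knockout array, and Mcm3 and Ccne1 among those red on every one. Sohlh1 KO 4 is the reddest Sohlh1 KO column.

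The G1 cyclins split. Ccne1 (cyclin E1, NCBI gene 12447, chromosome 7), the partner of Cdk2 at entry into S phase, read 7.23, 7.16, 7.27 and 7.64 in Sohlh1 KO 1 to 4 and 7.09, 7.37 and 7.31 in Sohlh2 KO 2 to 4, against 6.51, 6.36, 6.73 and 6.88 in wild type 1 to 4. Every knockout array was above every wild-type array. Ccne1 rose 1.63-fold in Sohlh1 KO (0.71, SE 0.149, adjusted p = 0.00271) and, in Sohlh2 KO, 1.56-fold (0.64, SE 0.161, adjusted p = 0.0107). Blocking on chip, the differences were 0.58 (adjusted p = 0.0299) and 0.38 (adjusted p = 0.388), and within chip 1 the Sohlh1 KO value did not pass (adjusted p = 0.0531). Without Sohlh2 KO 3 the Sohlh2 KO call was lost (0.58, adjusted p = 0.0507). The promoter of Ccne1 is shown as the one of the 3 genes called in both knockouts that holds none of the searched motifs, E-box included (chr7:38107441-38107740, minus strand, RefSeq, GRCm38.p6).
Ccne1: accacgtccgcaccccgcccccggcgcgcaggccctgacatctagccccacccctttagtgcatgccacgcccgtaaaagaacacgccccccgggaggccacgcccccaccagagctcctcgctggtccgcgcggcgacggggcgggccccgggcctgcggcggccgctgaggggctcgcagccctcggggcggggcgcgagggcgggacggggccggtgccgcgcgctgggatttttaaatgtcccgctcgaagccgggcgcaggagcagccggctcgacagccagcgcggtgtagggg
No letters are in capitals, since no motif matched in this window.

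Ccnd1, cyclin D1, the partner of Cdk4 and Cdk6 that couples growth signals to G1, moved the opposite way. It read 10.55, 10.47, 10.71 and 10.58 in Sohlh1 KO 1 to 4 and 11.19, 11.07 and 10.86 in Sohlh2 KO 2 to 4, against 10.98, 11.35, 11.57 and 11.26 in wild type 1 to 4. Sohlh1 KO lay below both other groups on every array, and Sohlh2 KO overlapped wild type. Ccnd1 fell 1.63-fold in Sohlh1 KO (-0.71, SE 0.138, adjusted p = 0.00156), with a Sohlh2 KO difference of -0.25 (adjusted p = 0.250). A second probe gave -0.73 in Sohlh1 KO and a still dimmer one gave 0.0035. The difference between the knockouts was -0.46 (95% interval -0.78 to -0.14), which did not pass (adjusted p = 0.338). Ccne2 and Ccna2, the other cyclins of S phase, and Ccnd2 did not pass in either knockout, with differences of 0.054, -0.083 and -0.065 in Sohlh1 KO.

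The arrays of Sohlh1 KO were the least alike. The median SD of the 33 genes was 0.316 in Sohlh1 KO and 0.143 in Sohlh2 KO, against 0.195 in wild type, and over all tested genes it was 0.268, 0.148 and 0.171. Sohlh1 KO 4 was the highest of its group for 23 of the 33 genes (69.7%), against 21.6% of all genes. The other groups had such an array too: Sohlh2 KO 4 was highest for 60.6% of the 33 genes, against 32.1% of all genes, and wild type 3 for 57.6%, against 28.4%. The mean of the 14 replication genes, taken from the wild-type mean, was -0.079, -0.083, -0.11 and 0.45 in Sohlh1 KO 1 to 4 and 0.094, 0.081 and 0.24 in Sohlh2 KO 2 to 4, against 0.075, -0.13, 0.051 and 0.0058 in wild type 1 to 4. Sohlh1 KO 4 alone of its group had a replication mean above the wild-type range. The mitotic mean was -0.54, -0.53, -0.40 and -0.14 in Sohlh1 KO 1 to 4 and -0.15, -0.19 and -0.15 in Sohlh2 KO 2 to 4, against -0.0071, -0.12, 0.19 and -0.058 in wild type 1 to 4. It was below every wild-type value on all 7 knockout arrays. Sohlh1 KO 4 also had the highest mean of red cell precursor markers (3.59 above wild type, against 1.42, 3.00 and 2.88 in Sohlh1 KO 1 to 3). The same held for granulocyte precursor markers (4.68, against 1.34, 4.19 and 3.39). Sohlh1 KO 2 had the next highest mean of both lists. Yet it was the lowest of its group for 18 of the 33 genes (54.5%, against 25.5% of all genes). The part of these markers in the cell cycle values was not tested.

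**Figure D5:**
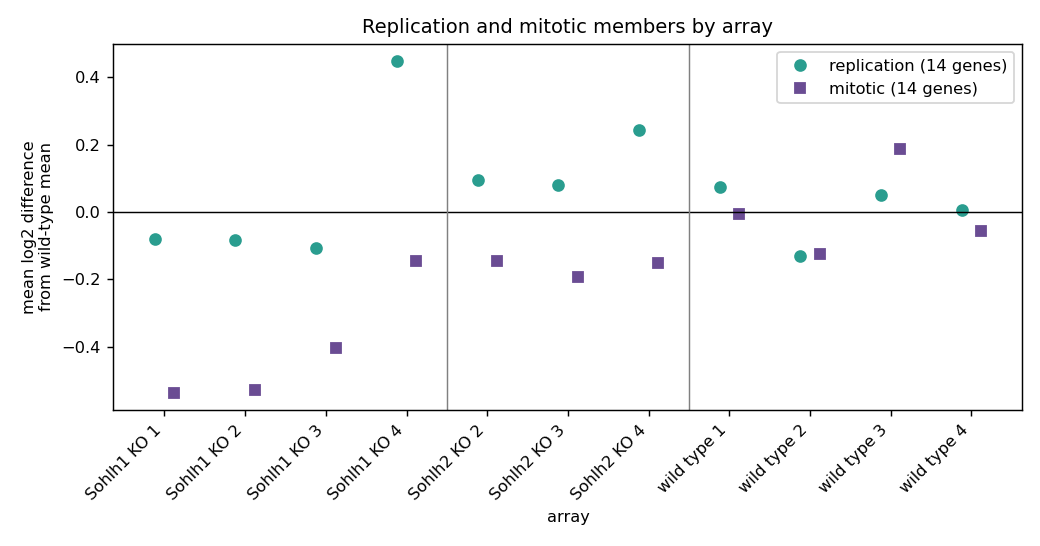
Mean log2 difference from the wild-type mean of the 14 replication genes (circles) and the 14 mitotic genes (squares) on each array. Mitotic means lie below replication means on all 7 knockout arrays, and Sohlh1 KO 4 has the highest replication mean at 0.45.

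The wider pathway was read from lists of genes drawn up by function, with the called genes of smallest adjusted p named. The shares of all genes to set beside the counts are 16.3% higher and 16.4% lower in Sohlh1 KO, and 12.5% and 13.0% in Sohlh2 KO. Of 41 tested genes in a list of other mitotic machinery, 2 rose (4.88%) and 11 fell (26.8%) in Sohlh1 KO, and 1 rose (2.44%) and 4 fell (9.76%) in Sohlh2 KO, with medians of -0.22 and -0.030. Cenpn, a centromere protein, fell in both (-0.81, adjusted p = 1.81e-04, and -0.63, adjusted p = 0.00286). Spc24 and Spc25 of the Ndc80 kinetochore complex fell in Sohlh1 KO (-0.72 and -0.44), where a Sohlh2 KO call was not made. Ube2c, the ubiquitin-conjugating enzyme of the anaphase-promoting complex, fell in both (-0.70 and -0.88), and so did Cdca5, the cohesion factor sororin (-0.53 and -0.67). Blocking on chip ended both Ube2c calls (-0.50, adjusted p = 0.105, and -0.49, adjusted p = 0.354). The Cdca5 calls were lost without wild type 1, wild type 3, Sohlh1 KO 2 or Sohlh1 KO 3 in Sohlh1 KO, and without Sohlh2 KO 3 or 4 in Sohlh2 KO. Zwint, a kinetochore protein, rose in both (0.54 and 0.49).

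Of 37 tested genes in a list of other replication machinery, 5 rose (13.5%) and 8 fell (21.6%) in Sohlh1 KO, and 4 rose (10.8%) and 3 fell (8.11%) in Sohlh2 KO, with medians of -0.025 and 0.051. Orc4, a subunit of the origin recognition complex, rose by 0.98 in Sohlh1 KO (adjusted p = 6.49e-05) and 0.69 in Sohlh2 KO (adjusted p = 0.00273), while Orc3 of the same complex fell in Sohlh1 KO (-0.54). Rpa2, of the single-strand binding protein, rose in both (0.82 and 0.80), and Cdc7, the kinase that fires origins, rose in both as well (0.39 and 0.54). Dnmt1, the maintenance DNA methyltransferase that travels with the fork and is also abundant in oocytes, fell in both (adjusted p = 6.79e-05 in Sohlh1 KO, and -1.02 with adjusted p = 1.52e-04 in Sohlh2 KO). With all probes of a gene averaged, the Sohlh2 KO calls of Orc4 (0.087) and Rpa2 (0.35) were lost, and with chip as a block those of Orc4, Rpa2 and Cdc7 were lost. The Sohlh1 KO call of Cdc7 was lost when chip was blocked (adjusted p = 0.0561), within chip 1, without wild type 2 and without wild type 2 and 3.

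Of 15 tested G1 and S regulators, 2 rose (13.3%) and 1 fell (6.67%) in Sohlh1 KO, and 1 rose and 1 fell in Sohlh2 KO (6.67% each). Ccnd3, cyclin D3, rose in both (0.81, adjusted p = 0.00591, and 0.77, adjusted p = 0.0150). Its Sohlh2 KO call was lost when chip was blocked (adjusted p = 0.115), without Sohlh2 KO 2 (adjusted p = 0.0582) and without Sohlh2 KO 3 (adjusted p = 0.0562). E2f2, an activating E2F, rose by 1.22 in Sohlh1 KO and by 0.69 with chip as a block (adjusted p = 0.135). E2f5, a repressing E2F, fell by 0.49 in Sohlh2 KO (adjusted p = 0.0496) and had no difference left with chip as a block (0.00033). Skp2 was called lower in Sohlh1 KO, but its probe was above background on 0 knockout arrays, so no size is given, and the call was lost under 18 of 24 alternatives.

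Of 13 tested inhibitors of the cycle, 3 rose and 2 fell in Sohlh1 KO (23.1% and 15.4%), and 1 rose and 1 fell in Sohlh2 KO, 7.69% each. Cdkn1c, the p57 inhibitor of cyclin-dependent kinases, had the largest rise of these lists: a Sohlh1 KO fold of 3.01 (adjusted p = 4.31e-05) and a Sohlh2 KO fold of 2.97 (adjusted p = 1.23e-04). Its mean in Sohlh1 KO was 14.25 ± 0.41 (SD, n = 4), and Sohlh2 KO gave 14.23 ± 0.086 (SD, n = 3), against 12.66 ± 0.30 in wild type (SD, n = 4). Cdkn2b, the p15 inhibitor of Cdk4 and Cdk6, fell 3.03-fold in Sohlh1 KO (-1.60, adjusted p = 2.10e-04), where Cdkn1a, the p21 inhibitor, fell by 0.83 and Cdkn2d, the p19 inhibitor, rose by 0.56. Rb1, the retinoblastoma protein gene, fell by 0.45 in Sohlh2 KO (adjusted p = 0.0279), a call lost with chip as a block, with probes averaged and without any one of wild type 1, wild type 2, Sohlh2 KO 2 or Sohlh2 KO 4.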

How the data were processed

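Total RNA of 11 samples of newborn mouse ovary was labelled as biotin cRNA and hybridised to Illumina MouseWG-6 v2 arrays, and BeadStudio 3.2 is named in the labels. The deposited intensity values are described there as non-normalized, yet the sorted values of the 11 arrays nearly coincide (largest gap 11.16 units), so they had already been quantile normalized. The deposited series matrix holds log2 of the same values to within 0.004997. Depth does not apply to arrays, and the number of arrays limits the precision.

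No detection p-values were used. The 1287 olfactory receptor probes served as background: normexp correction with an offset of 16, quantile normalization and log2 followed (R 4.3.3, limma 3.58.1). Probes above the 95th percentile of that background (149 to 159 units) on at least 3 arrays were kept, 24462 of 45281, and each gene was read from its brightest kept probe. Of the probes, 34885 had 1 symbol, 18 several and 10378 none. Lists of cell markers and pathway genes were read the same way. Limma's lmFit and eBayes were fitted to all 11 arrays with 3 group means (8 residual degrees of freedom), with Benjamini-Hochberg adjustment over 13355 genes and a threshold of 0.05. The script was tested on simulated data.

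The 40 genes, the lists and the tests were chosen with earlier results of these data known. Values on every array are given for genes called in any comparison and for Top2a, Pcna and Mcm2 (Mki67 was to be included but had no named probe), and up to 4 called genes of smallest adjusted p are named per pathway list and knockout. Promoters are RefSeq sequences of GRCm38.p6, shown for genes called in both knockouts. Alternatives covered background, scaling, filter, probe choice, source of values, chip, array weights, replicate block, groups fitted and arrays left out.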

Additional observations from a re-analysis of the deposited data

Results flagged for a closer look

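Among 66 groups of 4 arrays examined for the tested genes, 1 held an array far from the others. Mcm3 in Sohlh1 KO 4 read 8.37, while the nearest Sohlh1 KO array read 7.88 and the lowest 7.80, a gap of 0.870 of the group's range, which is above Dixon's 95% critical value for 4 samples. Chance gives about 1 such array in 20 groups. All 4 Sohlh1 KO arrays were above wild type for this gene.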

How the results depend on the processing

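The 12 called results of single genes were refitted under 297 alternatives in all: 267 kept the call, 30 lost it and 0 changed sign. These are not 297 separate checks. Leaving out an array of the group not compared keeps a difference as it was and can move only its p. Averaging probes does the same for a gene with 1 kept probe. Sohlh1 KO differences are equal with chip as a block and within chip 1. Only Aurka, Bub1b and Ccnd1 in Sohlh1 KO kept the call under every alternative, and Pcna lost it under 11 and Plk1 under 8 of 25. Genes called higher in Sohlh1 KO (2) numbered 0 within chip 1 and 2 to 4 with 1 array left out, the 4 without Sohlh1 KO 2, and genes called lower (7) numbered 3 without wild type 2 and 3 and 5 to 8 with 1 array left out. Genes called higher in Sohlh2 KO (2) numbered 6 with array weights, 0 with chip as a block, 5 with only the 2 groups fitted, 1 without wild type 2 and 3 and 1 to 3 with 1 array left out. Genes called lower in Sohlh2 KO (1) numbered 3 with cyclic loess, 2 with array weights, 3 with only the 2 groups fitted and 0 without wild type 2 and 3. The gap between replication and mitotic medians in Sohlh1 KO (0.396) was 0.233 with probes averaged and 0.273 to 0.505 with 1 array left out, and in Sohlh2 KO (0.379) it was 0.322 to 0.412.

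The sign turned for Top2a in Sohlh1 KO with probes averaged (-0.12), for Sohlh2 (0.27), Pcna (0.22) and E2f5 (0.00033) in Sohlh2 KO with chip as a block, and for Pcna between the knockouts without Sohlh1 KO 3 (0.051, and -0.28 to 0.051 over all arrays left out in turn). These 5 are among 1522 refitted gene values. That set was narrowed to the values reported after the turned signs had been seen: over every named gene in all 3 comparisons 57 of 2436 turned. The causes were not tested.

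With the replicate number as a block the counts were again 2 higher and 7 lower in Sohlh1 KO and 2 higher and 1 lower in Sohlh2 KO, with gaps of 0.396 and 0.428. Same-numbered arrays correlated between -0.20 and 0.13 in their deviations, and differently numbered arrays between -0.30 and 0.26. A pairing by number was thus not seen, though so few arrays cannot exclude one.

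Over all genes, 2174 rose and 2193 fell in Sohlh1 KO and 1671 rose and 1732 fell in Sohlh2 KO. Without wild type 2 and 3 these were 1083 and 1457 in Sohlh1 KO and 768 and 1100 in Sohlh2 KO. Within chip 1, 1309 rose and 1679 fell in Sohlh1 KO. Blocking on chip left 676 higher and 1036 lower in Sohlh2 KO. With array weights 2832 rose and 2394 fell in Sohlh2 KO, and without Sohlh2 KO 2, 1084 rose and 1353 fell. Cyclic loess lowered the share of calls that were higher to 41.3% in Sohlh1 KO and 38.1% in Sohlh2 KO, against 49.8% and 49.1%. Between the knockouts 5 genes were called, and 69 without Sohlh1 KO 1. All scalings started from values already quantile normalized, and Sohlh2 KO and wild type shared no chip.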
